A study of Mus musculus with 12 samples.

Results

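The response of the mouse heart to pressure overload was described here as the change common to 2 diets. For each gene it was the mean of the TAC minus sham difference on the control diet and that on the BCAA-free diet, fitted over 6 TAC and 6 sham libraries with diet as a block. Of 16363 gene identifiers in the deposited tables of these 2 comparisons, 15525 were in both, and 15524 had a mean of 10 or more normalised reads and were tested.

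The hearts came from male C57Bl/6J mice aged 12 weeks. TAC, transverse aortic constriction, narrows the aortic arch so that the left ventricle ejects against a raised pressure, and sham is the operation without the constriction. The control diet held every essential amino acid, and the BCAA-free diet lacked leucine, isoleucine and valine, the branched-chain amino acids (BCAA). Both diets carried 1% propionate, the salt of a short-chain fatty acid, so no group was free of it. Feeding began 4 days before surgery and lasted until the hearts were taken 1 week after it. Each diet had a sham and a TAC group, and each of these 4 groups had n = 3 libraries. Whether each library is a mouse of its own is not stated by the labels, so a p-value here reflects only how far these libraries scatter, part of which may be technical.

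As background, cardiac muscle cells under pressure load enlarge and turn on natriuretic peptides and sarcomere isoforms of the fetal heart. Fibroblasts lay down collagens and matricellular proteins, which are secreted proteins that tune the matrix rather than bear load. Macrophages enter or multiply, and the muscle's expression of genes for fatty acid oxidation and for some ion channels commonly falls.

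Library depth ranged from 29927472 to 46097445 reads on listed genes. Summed cardiomyocyte markers made up 94246 to 96684 CPM (counts scaled to one common library total) of control sham, 90984 to 98046 of control TAC, 97080.5 to 99795 of BCAA-free sham and 97455 to 108624 of BCAA-free TAC libraries, which fits the label of heart. Some libraries stood apart. Control TAC 3 held 6668 reads of the liver gene Alb against 0 to 3 in the other control libraries. Its summed liver transcripts made up 441 CPM, against 18.1 to 44.1 in the other control libraries. The BCAA-free libraries had 22.5 to 45.8. These sums cover 22 liver transcripts on the control diet and 8, without Alb, on the BCAA-free diet, so they are compared within a diet. Control TAC 2 held 122 CPM of polymerase III transcripts against 1.59 to 26.3 elsewhere. Summed fat markers made up 47.5 CPM in control TAC 1 against 11.8 to 17.9 in the other control libraries. They made up 108 CPM in BCAA-free TAC 2 against 21.5 to 50.7 in the other BCAA-free libraries. These sums cover 6 fat markers on the control diet and 7 on the BCAA-free diet. Counts of gene lists that change by more than 1.5 times without control TAC 2 and 3 are given without them. Values below are normalised reads per library, each from the table of its own diet. The 2 tables were normalised separately, so levels are compared within a diet. A change is a log2 difference of value + 4, TAC minus sham, with the standard error of the fit, and it understates the change of low genes. A gene was called when its p-value, adjusted over all 15524 genes, was below 0.05. In whole-heart RNA, fewer cells of a type and less RNA per cell cannot be told apart.

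After 1 week of TAC, 2474 of the 15524 genes (15.9%) were called for the mean effect. Of these, 1420 (9.15% of genes tested) rose and 1054 (6.79%) fell. The counts of gene lists below are to be read against these shares, and a list near them is not set apart by its count. On the recovered reads edgeR called 15.6% (9.51% higher, 6.12% lower) and DESeq2 19.3% (10.7% higher, 8.6% lower). The rises were larger: 214 genes rose at least 2-fold and 20 at least 4-fold, against 16 and 0 that fell as far. The median change was 0.47 among genes that rose, -0.30 among those that fell and -0.0049 over all genes. A call was more frequent at higher levels, from 9.43% to 23.4% between the lowest and the highest of 4 equal classes of mean level. Without control TAC 1, the library whose absence lowered the count most, 1647 genes were called, and 1431 (859 higher, 572 lower) were called in each of the 12 fits that left out 1 library. Without control TAC 2 and 3 together the count was 2129, of which 1768 were among the 2474.

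The response could be compared between the diets because the TAC and sham libraries of one diet were not used for the other. Tested alone, TAC changed 848 genes on the control diet, 5.34% of 15873 (3.4% higher, 1.94% lower), and 688 on the BCAA-free diet, 4.32% of 15936 (2.94% higher, 1.37% lower). Of 507 genes that rose on the control diet and were tested in both, 456 (89.9%) were higher after TAC on the BCAA-free diet too, and 287 (56.6%) were so at an unadjusted p under 0.05, against 11.7% of all genes. Their median change was 0.73 on the control diet and 0.41 on the BCAA-free diet. Of 308 that fell on the control diet, 270 (87.7%) were lower on the other diet. In the other direction, 440 of 467 genes that rose on the BCAA-free diet (94.2%) and 203 of 219 that fell there (92.7%) had the same sign on the control diet. Over all genes the 2 differences had the same sign in 66.2%. TAC and sham libraries did not overlap on either diet, in one direction, for 1347 of the 2474 called genes (785 higher, 562 lower). Over all genes this held for 9.53% (5.45% higher, 4.08% lower). The called genes were chosen by the same contrast in these libraries, so their larger share follows from that choice. Called genes were also called on both diets alone in 194 cases, on the control diet alone in 464, on the BCAA-free diet alone in 381 and on neither in 1435. The counts of each diet alone rest on 3 against 3 libraries and varied. In place of 848 on the control diet they were 400, 399, 300 and 331 without TAC 1, TAC 2, sham 1 and sham 3. In place of 688 on the BCAA-free diet they were 385, 1199, 106, 113 and 118 without TAC 2, TAC 3, sham 1, sham 2 and sham 3.

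The difference between the 2 effects was itself tested and passed the threshold for 7 genes (0.0451%, with 0.00644% larger and 0.0386% smaller on the BCAA-free diet), with 1568 genes at an unadjusted p under 0.05. Of the 2474 genes with a mean effect, 2 were among the 7. Lmnb1, which encodes the nuclear lamina protein lamin B1, read 235, 218 and 206 in control sham, 565, 564 and 522 in control TAC, 202, 202 and 211 in BCAA-free sham and 225, 223 and 216 in BCAA-free TAC libraries. It rose on the control diet, TAC lay above sham on both diets, by only 0.11 on the BCAA-free diet, where its change was not called (adjusted p = 0.644), and the difference of effects was -1.20 (adjusted p = 0.00401). Stmn1, a regulator of microtubule assembly, read 304, 393 and 330.3 in control sham, 904, 788 and 714 in control TAC, 368, 324 and 308 in BCAA-free sham and 401, 366 and 336 in BCAA-free TAC libraries, with a difference of -1.08 (adjusted p = 0.0433). The number of genes past this threshold was 15 without BCAA-free TAC 1, 11 without control sham 1, 5 without BCAA-free TAC 3, 2 or 3 without any 1 of the other 9 libraries and 1 without control TAC 2 and 3. A gene that missed it is not thereby shown to respond alike on the 2 diets.

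**Figure D1:**
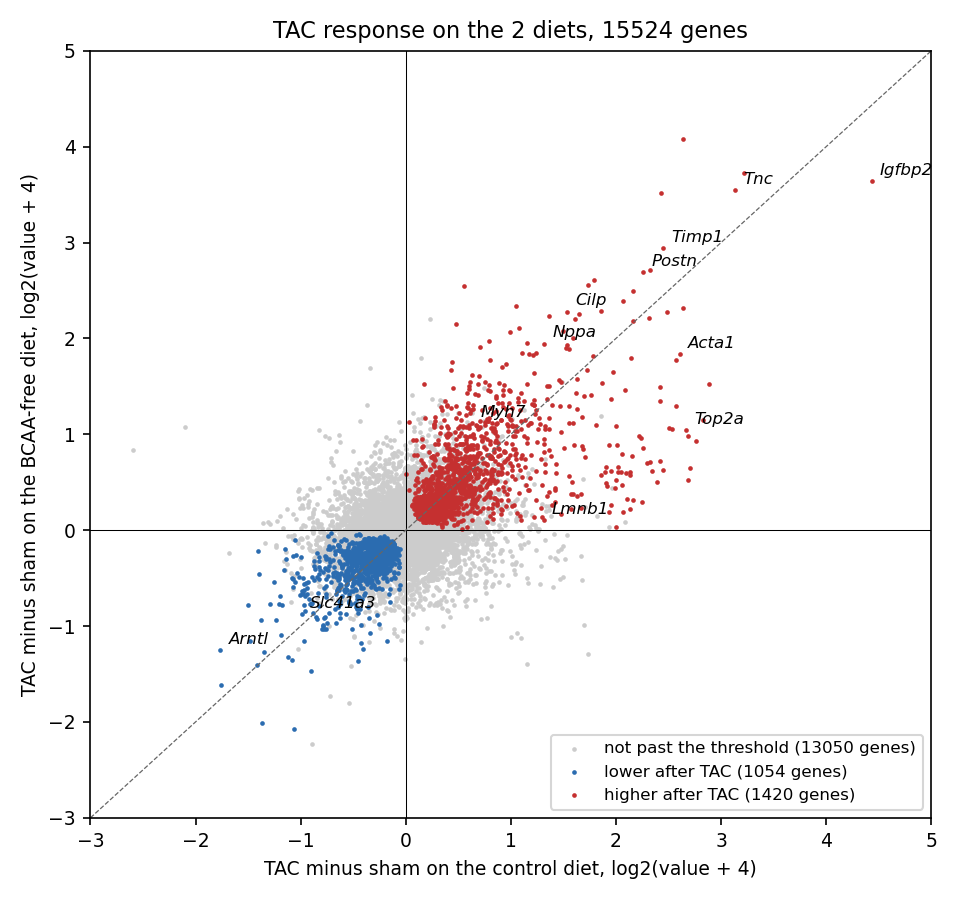
Each of the 15524 genes is placed by its TAC minus sham difference on the control diet (x) and on the BCAA-free diet (y), both in log2(value + 4), with the dashed line marking equal differences. The 1420 genes that rose for the mean effect (red) and the 1054 that fell (blue) lie in the quadrants where both differences have the same sign, a position that the fit of a mean effect favours, and Lmnb1 lies near 0 on the y axis.

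The cardiac stress and fetal genes rose together. Of 20 listed and tested, 17 rose and 0 fell, with a median change of 0.74 against -0.0049 for all genes, 0.63 on the control and 0.71 on the BCAA-free diet. Nppa, which encodes atrial natriuretic peptide, read 6753, 13484 and 7726 in control sham, 38852, 16870.3 and 16569 in control TAC, 18996, 16268 and 10575 in BCAA-free sham and 103851, 54492 and 33043 in BCAA-free TAC libraries. TAC lay above sham on each diet and the mean change was 1.63 ± 0.28 (adjusted p = 0.00234). Nppa is also a marker of the atrial chambers, and the part of atrial tissue in its values was not tested. Nppb, which encodes brain natriuretic peptide, changed by 1.34 ± 0.24 (adjusted p = 0.003), again with no overlap. Its levels were 2361, 6889 and 4419 in control sham, 14722, 12561 and 9866 in control TAC, 3803, 5705 and 5345 in BCAA-free sham and 17799, 9519.7 and 7017 in BCAA-free TAC libraries.

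Acta1, the skeletal isoform of alpha actin that the loaded heart re-expresses, read 10930.3, 11118 and 10366 in control sham, 72646, 58440.2 and 66950.2 in control TAC, 9932, 7708 and 7044 in BCAA-free sham and 64258, 21499.7 and 17687 in BCAA-free TAC libraries. The change was 2.22 ± 0.24 (adjusted p = 0.000187), 2.61 on the control and 1.83 on the BCAA-free diet, and BCAA-free TAC 2 and 3 lay far below BCAA-free TAC 1 while still above the sham libraries of that diet. Myh7, the slow beta isoform of myosin heavy chain, read 26813, 26612 and 24142 in control sham, 49491, 36099 and 35763 in control TAC, 30314, 36653 and 33827 in BCAA-free sham and 78590.4, 63992 and 76264 in BCAA-free TAC libraries and rose by 0.87 ± 0.11 (adjusted p = 0.000322). Ankrd1, a stretch-responsive protein of the sarcomere and nucleus, rose by 1.24 ± 0.16 (adjusted p = 0.000396), with 1.24 on the control and 1.25 on the BCAA-free diet. Intermediate filament genes rose as well, Des by 0.60 ± 0.10 (adjusted p = 0.00216) and Vim by 0.86 ± 0.11 (adjusted p = 0.000342). Des is the filament of muscle and Vim that of mesenchymal cells.

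The promoters of 3 of these genes are shown because the genes moved together and their windows hold binding letters of factors known in cardiac stress. The sequences are from RefSeq on GRCm38.p6 and run from 250 bases before to 50 after the annotated start. Capitals mark, on either strand, CATTCC (the MCAT letters of TEAD factors) in all 3, the CArG box of serum response factor in Acta1, and in Nppb and Ankrd1 the GATA letters, which were searched as AGATAA and, as a second form, TGATAA. These motifs did not overlap in the windows printed. The windows are chr8:123894726-123895025 on the minus strand for Acta1, chr4:147985650-147985949 on the plus strand for Nppb and chr19:36119795-36120094 on the minus strand for Ankrd1.
Acta1: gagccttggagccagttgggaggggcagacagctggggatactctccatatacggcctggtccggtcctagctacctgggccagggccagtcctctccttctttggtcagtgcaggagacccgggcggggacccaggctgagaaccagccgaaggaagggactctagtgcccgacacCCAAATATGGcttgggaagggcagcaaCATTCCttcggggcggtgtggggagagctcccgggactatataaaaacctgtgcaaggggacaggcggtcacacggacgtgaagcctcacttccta
Nppb: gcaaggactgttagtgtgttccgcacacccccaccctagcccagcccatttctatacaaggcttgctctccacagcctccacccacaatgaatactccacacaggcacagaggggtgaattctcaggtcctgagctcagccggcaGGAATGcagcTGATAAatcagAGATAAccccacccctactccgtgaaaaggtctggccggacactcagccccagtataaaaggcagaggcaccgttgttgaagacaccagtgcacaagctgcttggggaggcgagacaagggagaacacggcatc
Ankrd1: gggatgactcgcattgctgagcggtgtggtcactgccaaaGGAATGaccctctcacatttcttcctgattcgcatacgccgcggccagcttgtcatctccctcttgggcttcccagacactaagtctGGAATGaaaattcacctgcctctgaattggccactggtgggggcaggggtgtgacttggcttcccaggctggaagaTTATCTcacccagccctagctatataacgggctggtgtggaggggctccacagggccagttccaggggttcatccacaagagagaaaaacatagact
CATTCC was present in 9 of the 23 windows of the stress genes that rose (39.1%) and in 14.7% of all 32851 windows. The CArG box was in 2 of the 23 (8.70%) and in 1.63% of all windows, and the GATA letters in 5 (21.7%) and 18.6%. A match is a description of letters and not a site of binding.

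Genes of the adult sarcomere moved less. Of 22, 5 rose and 0 fell, with a median of 0.04, -0.05 on the control and 0.15 on the BCAA-free diet. Tnnc1, the calcium-binding troponin, read 81748, 78891 and 80635 in control sham, 104801, 97413 and 103863 in control TAC, 88288, 79695 and 85962 in BCAA-free sham and 121973, 114722 and 120891 in BCAA-free TAC libraries, with every TAC library above sham, and rose by 0.42 ± 0.06 (adjusted p = 0.000655). Mybpc3, cardiac myosin-binding protein C, rose by 0.33 ± 0.08 (adjusted p = 0.00949) and Myom1, of the M-band, by 0.31 ± 0.06 (adjusted p = 0.00338). Myh6, the fast alpha isoform of myosin that a hypertrophic mouse heart often lowers, was not called: it read 1358470.0, 1360150.0 and 1388380.0 in control sham, 1196090.0, 1348890.0 and 1392580.0 in control TAC, 1441130.0, 1510050.0 and 1540160.0 in BCAA-free sham and 1437630.0, 1666220.0 and 1491450.0 in BCAA-free TAC libraries. TAC and sham overlapped on both diets and the change was -0.02 ± 0.13 (adjusted p = 0.949).

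Among 17 calcium-handling genes, 2 rose and 3 fell. Pln, phospholamban, which restrains the calcium pump SERCA, fell by 0.35 ± 0.08 (adjusted p = 0.00981) with TAC below sham on both diets. Atp2a2, which encodes SERCA itself, read 463574, 467433 and 493716 in control sham, 351427, 404416 and 398293 in control TAC, 585010.0, 597185 and 594869 in BCAA-free sham and 424610.0, 453194 and 506377 in BCAA-free TAC libraries. All 6 TAC libraries lay below the sham libraries of their diet, but the fall of 0.34 ± 0.09 (adjusted p = 0.0243) was lost without BCAA-free TAC 1 (-0.31, adjusted p = 0.0596), without BCAA-free sham 3 (-0.33, adjusted p = 0.0583) and with quantile normalization (-0.21, adjusted p = 0.143). The calcium genes that fell numbered 1 without BCAA-free TAC 1 or BCAA-free sham 3, and those that rose 0 without BCAA-free TAC 1, BCAA-free TAC 3, BCAA-free sham 1, BCAA-free sham 3, control TAC 1 or control TAC 3 and 1 without BCAA-free sham 2, control sham 1, control sham 2 or control sham 3, and 1 without control TAC 2 and 3.

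**Figure D2:**
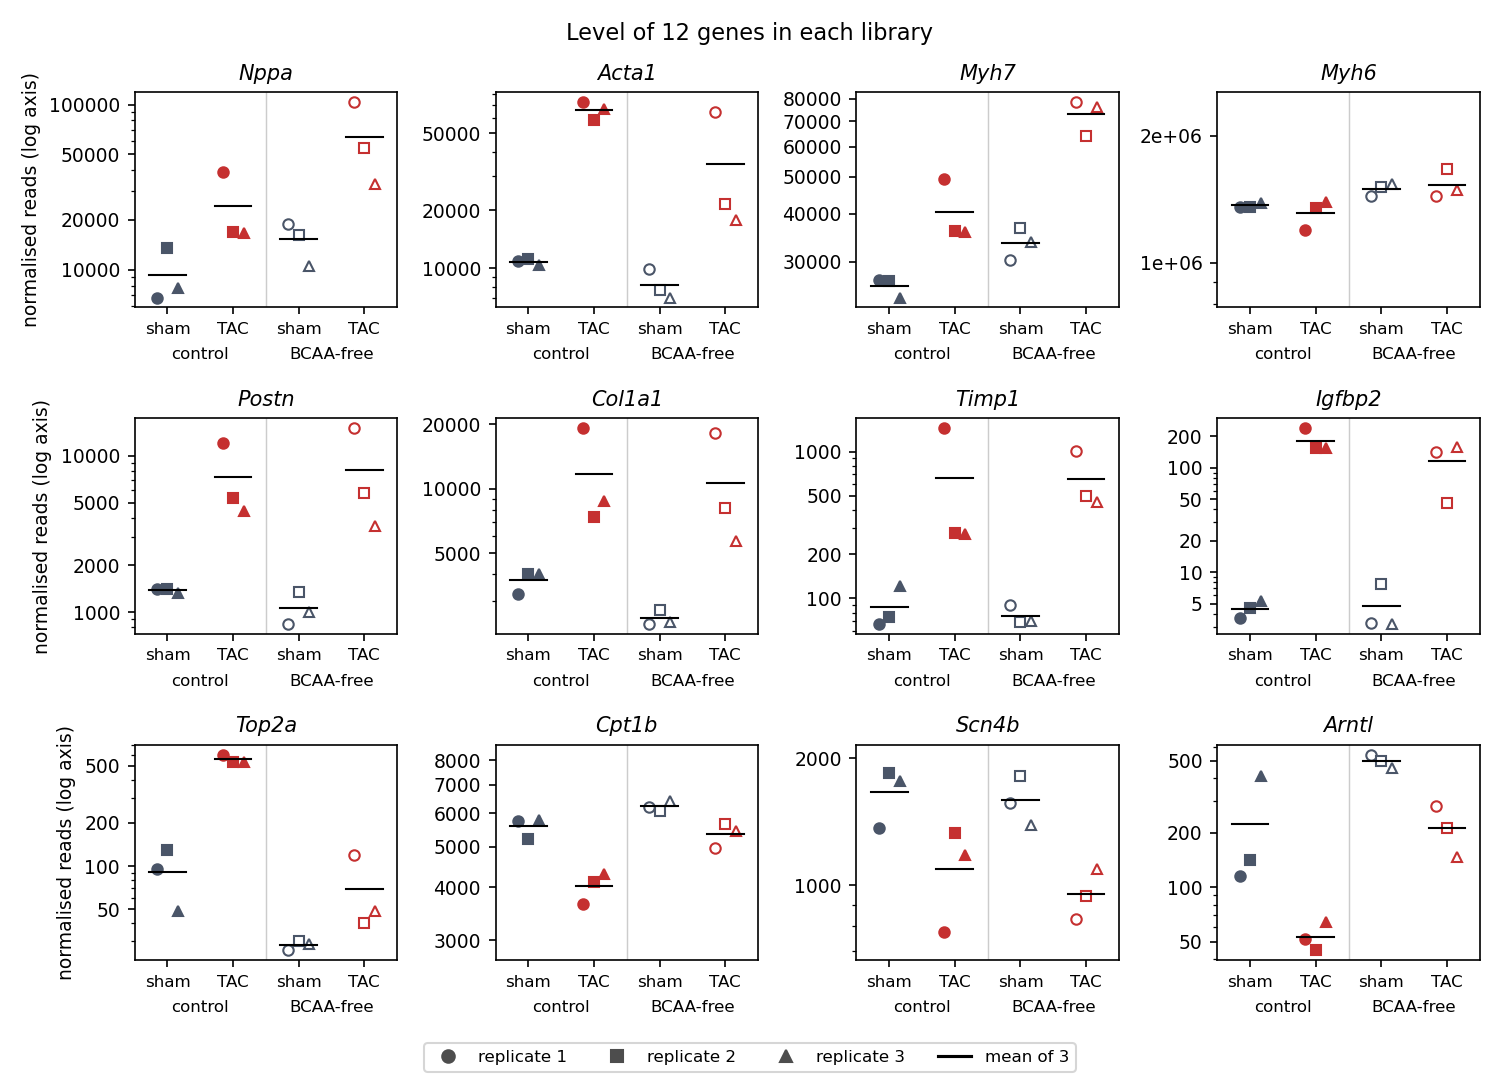
Normalised reads of 12 genes in each of the 12 libraries, on a log axis, with filled symbols for the control diet, open symbols for the BCAA-free diet and a line at the mean of 3. TAC libraries (red) lie above sham for the genes from Nppa to Top2a other than Myh6, which overlaps, and below sham for Cpt1b, Scn4b and Arntl.

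Matrix genes were among the largest rises. The matricellular and wound-healing list had 19 of 25 genes higher and 0 lower, with a median of 1.07, 0.99 on the control and 1.12 on the BCAA-free diet. Postn, periostin, a marker of activated fibroblasts, read 1401, 1401 and 1327 in control sham, 12088, 5382 and 4429.8 in control TAC, 839.9, 1337 and 998 in BCAA-free sham and 14971, 5762 and 3553 in BCAA-free TAC libraries. Every TAC library was above every sham library of its diet, and the mean change was 2.48 ± 0.29 (adjusted p = 0.000257). Tnc, tenascin-C, read 30.4, 54.5 and 55.7 in control sham, 1389, 253 and 223 in control TAC, 23.6, 46.1 and 18.03 in BCAA-free sham and 482, 325 and 298 in BCAA-free TAC libraries and changed by 3.34 ± 0.37 (adjusted p = 0.000187), about 10.1-fold on the scale used. Control TAC 1 stood far above the other control TAC libraries. Cthrc1, a secreted protein of injured vessels and activated fibroblasts, changed by 3.47 ± 0.50 (adjusted p = 0.000728). Thbs4, a thrombospondin, changed by 2.23 ± 0.28 (adjusted p = 0.000342). Cilp, the cartilage intermediate layer protein, read 555, 580.0 and 649 in control sham, 2331, 1615 and 1371 in control TAC, 519.8, 690.1 and 661 in BCAA-free sham and 5410.4, 2112 and 2405 in BCAA-free TAC libraries, without overlap, and rose by 1.91 ± 0.21 (adjusted p = 0.000187).

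Of 24 collagen genes, 17 rose and 0 fell, with a median of 0.92. Col1a1, the main chain of type I collagen, read 3221, 3986 and 3985 in control sham, 19202, 7369.7 and 8758 in control TAC, 2331, 2725 and 2391 in BCAA-free sham and 18137, 8151 and 5702 in BCAA-free TAC libraries. TAC was above sham on both diets, and the mean change was 1.73 ± 0.25 (adjusted p = 0.000728). Col3a1, of type III collagen, rose by 1.95 ± 0.24 (adjusted p = 0.000345), Col8a1, of a short-chain collagen, by 1.91 ± 0.25 (adjusted p = 0.000408), and Col18a1, of basement membranes, by 1.12 ± 0.13 (adjusted p = 0.000195). Enzymes that process and crosslink collagen rose in 13 of 20 cases, with a median of 0.40 and 0 lower. Lox, lysyl oxidase, read 178, 123 and 159.9 in control sham, 1679.7, 433 and 451 in control TAC, 147, 232 and 164 in BCAA-free sham and 2196, 723 and 660.4 in BCAA-free TAC libraries, with control TAC 1 and BCAA-free TAC 1 the highest of each diet, and rose by 2.32 ± 0.33 (adjusted p = 0.000658). Adamts2, the procollagen N-proteinase, rose by 1.20 ± 0.15 (adjusted p = 0.000396) and Pcolce, an enhancer of the C-proteinase, by 0.71 ± 0.11 (adjusted p = 0.00117).

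Among 26 small proteoglycans and elastic fibre genes, 15 rose and 1 fell, with a median of 0.53. Eln, elastin, read 1579.5, 1792 and 1648 in control sham, 9537, 5048 and 3521 in control TAC, 1808, 2541 and 2363 in BCAA-free sham and 11933, 6019 and 4858 in BCAA-free TAC libraries and rose by 1.70 ± 0.22 (adjusted p = 0.000408). TAC and sham libraries did not overlap. Ltbp2, a microfibril-associated protein, rose by 2.20 ± 0.28 (adjusted p = 0.000408), Mfap5 by 1.53 ± 0.21 (adjusted p = 0.00054) and Bgn, biglycan, by 1.05 ± 0.14 (adjusted p = 0.000463). Of 24 proteases and their inhibitors, 10 rose and 1 fell, the rises numbering 6 without control TAC 1 or without BCAA-free sham 3. The fall was that of Mmp9, named after its value was seen, and was lost without BCAA-free TAC 1, BCAA-free TAC 2, BCAA-free TAC 3, BCAA-free sham 2, BCAA-free sham 3, control TAC 2, control TAC 3, control sham 1 or control sham 3, and without control TAC 2 and 3. Timp1, an inhibitor of matrix metalloproteinases, read 66.9, 74.9 and 121 in control sham, 1441, 277 and 274 in control TAC, 90.2, 69.2 and 70.0 in BCAA-free sham and 1006, 499 and 451 in BCAA-free TAC libraries. TAC was above sham throughout and the change was 2.69 ± 0.35 (adjusted p = 0.000396).

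The largest rise among all called genes was that of Igfbp2, an insulin-like growth factor binding protein, at chr1:72824503-72852474 of GRCm38. It read 3.65, 4.54 and 5.26 in control sham, 240.0, 154 and 154 in control TAC, 3.22, 7.69 and 3.18 in BCAA-free sham and 141, 46.3 and 158 in BCAA-free TAC libraries. Sham libraries held at most 7.69 normalised reads and TAC libraries at least 46.3, and the change was 4.04 ± 0.28 (adjusted p = 6.22e-06), 4.43 on the control and 3.64 on the BCAA-free diet. Of 15 genes of the IGF system 5 rose and 0 fell, with medians of 0.01 on the control and 0.25 on the BCAA-free diet. Igf1 itself changed by 0.98 ± 0.19 (adjusted p = 0.00413) and Igfbp7, another binding protein, by 0.83 ± 0.11 (adjusted p = 0.000402). Sprr1a, a small proline-rich protein known from stressed cardiomyocytes and regenerating nerve, read 2.43, 5.68 and 11.6 in control sham, 289.8, 20.4 and 28.4 in control TAC, 2.15, 10.6 and 6.36 in BCAA-free sham and 582, 149 and 46.3 in BCAA-free TAC libraries, which is a rise of 3.36 ± 0.63 (adjusted p = 0.00347) with the largest standard error among the 15 largest rises of genes that are not predicted or clone-named. Serpina3n, an extracellular serine protease inhibitor also made in the acute phase by liver, rose by 2.14 ± 0.30 (adjusted p = 0.000614). It read 353, 254 and 574 in control sham, 2902, 686 and 966 in control TAC, 326, 282 and 300.1 in BCAA-free sham and 2301, 1319 and 1918 in BCAA-free TAC libraries. Control TAC 3, the library with Alb reads, lay between control TAC 2 and control TAC 1. The part of liver RNA in these values was not tested.

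**Figure D3:**
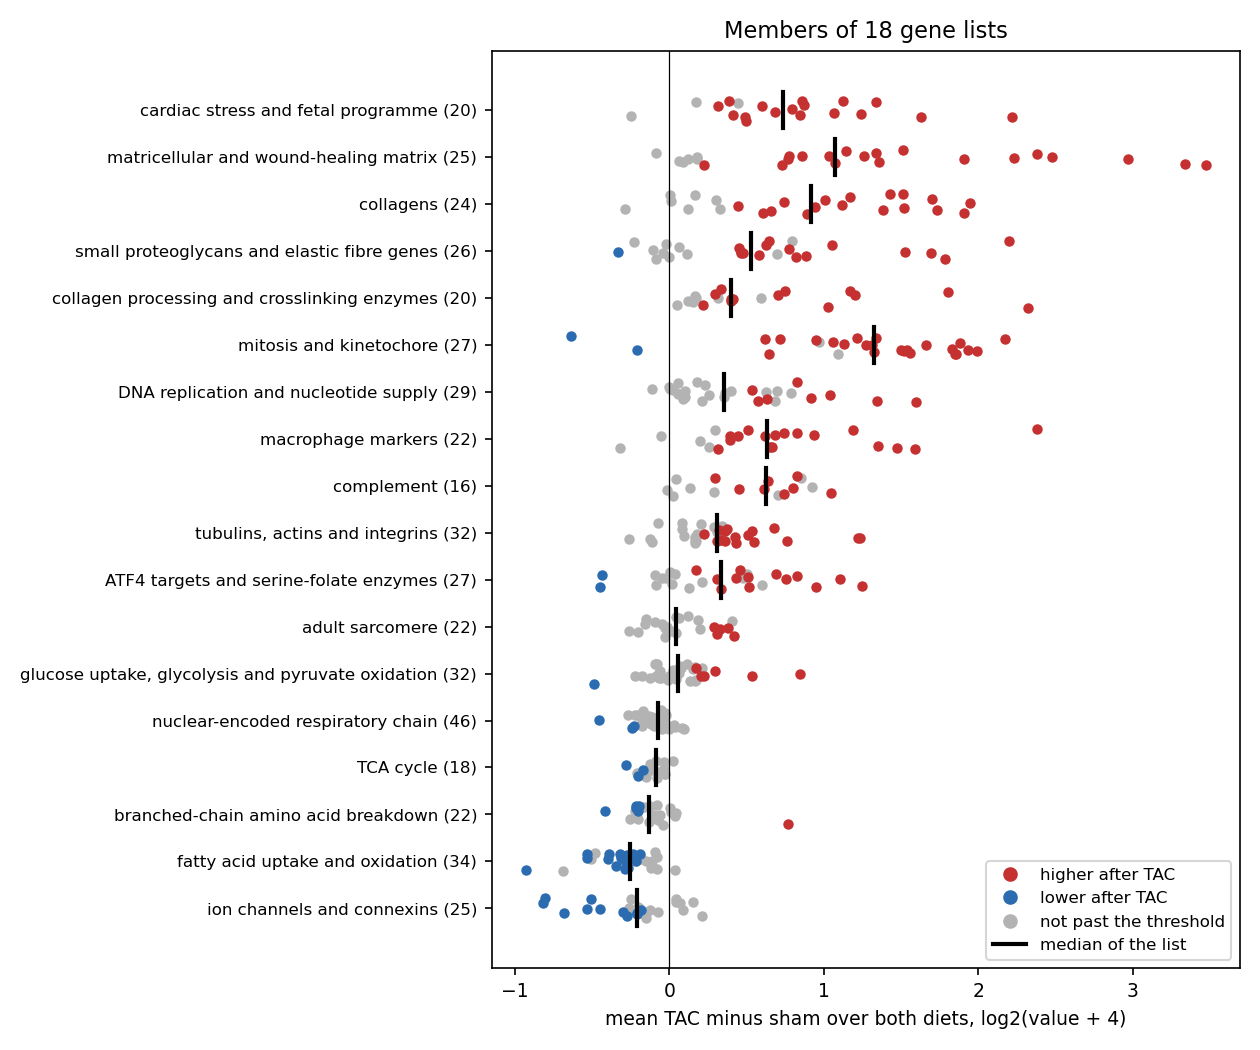
Mean TAC minus sham over both diets, in log2(value + 4), of each tested member of 18 gene lists, with the number tested in brackets and a bar at the median. Red members rose and blue members fell past the threshold, and the medians farthest to the right are those of the mitosis and matricellular lists, at 1.33 and 1.07.

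The size of the response varied between TAC libraries of one group. Among the 214 genes that rose at least 2-fold, control TAC 1 was the highest of its 3 in 175 (81.8%) and BCAA-free TAC 1 in 188 (87.9%), and both held for 156 (72.9%), against 37.6%, 37.8% and 19.1% of all genes. The median of these 214 genes over their sham mean was 1.93, 1.21 and 1.18 in control TAC 1 to 3 and 1.83, 1.07 and 0.91 in BCAA-free TAC 1 to 3. Since the genes were chosen by this contrast, these values are a description. For collagens the list medians were 1.19, 0.45 and 0.54 on the control diet and 1.60, 0.80 and 0.61 on the BCAA-free diet. The stress and fetal genes had the same order in part, with 0.95, 0.54 and 0.50, then 1.08, 0.55 and 0.43. Mitosis genes differed from this on the control diet, where the 3 libraries gave 2.18, 1.96 and 2.19. Pressure gradients, heart weights or other measures of the load are not analysed here.

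**Figure D4:**
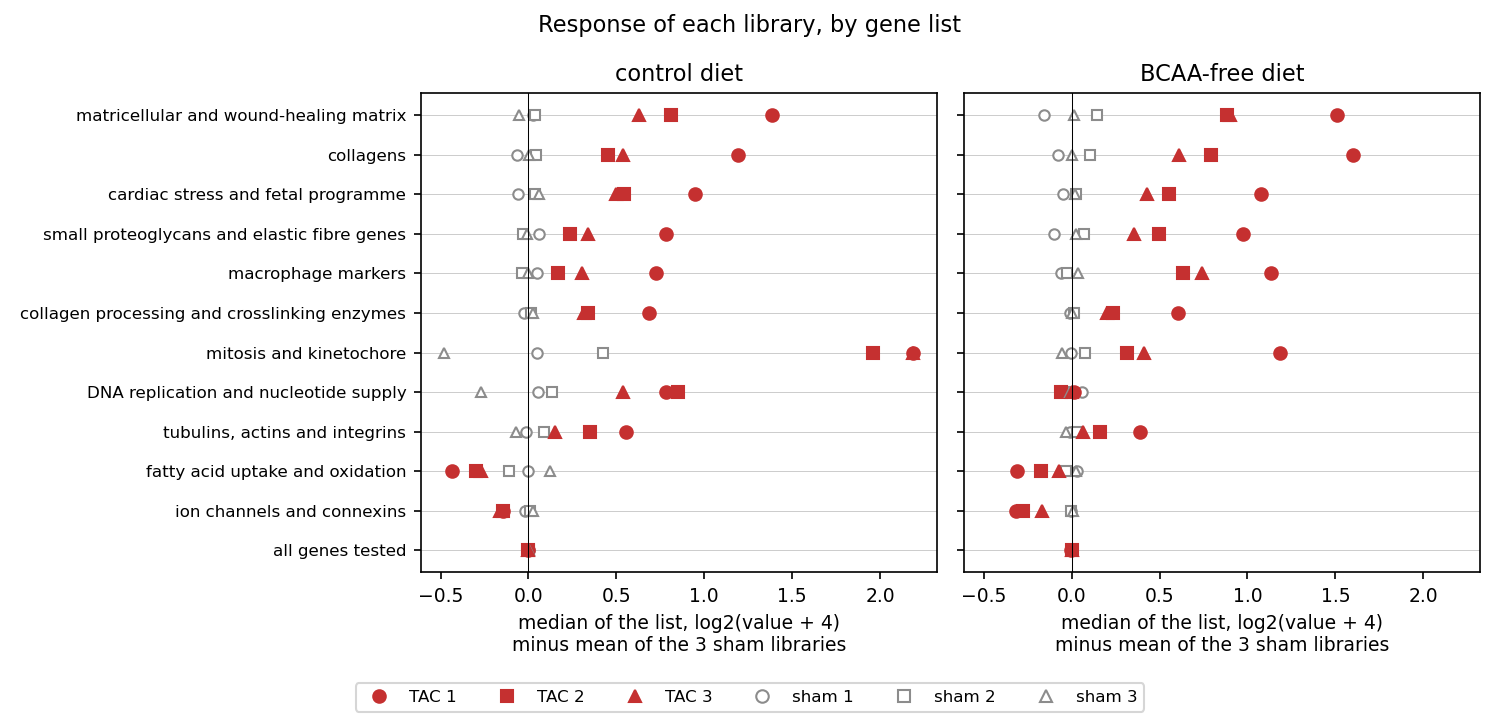
Median over each list's members of log2(value + 4) minus the mean of the 3 sham libraries of the diet, for every library, with TAC in red and sham in grey. For the matrix, stress and macrophage lists TAC 1 lies farthest right on both diets, the mitosis list lies near 2 in all 3 control TAC libraries, and all genes together lie at 0.

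Markers of macrophages rose in 17 of 22 tested cases with 0 lower and a median of 0.63. Their summed level was 346 to 381 CPM in control sham, 381 to 618 in control TAC, 270.4 to 296 in BCAA-free sham and 454 to 558 in BCAA-free TAC libraries. Lgals3, galectin-3, read 103, 110.1 and 115 in control sham, 463, 143 and 207 in control TAC, 122, 99.0 and 89.1 in BCAA-free sham and 498, 405 and 271 in BCAA-free TAC libraries, without overlap, and rose by 1.48 ± 0.24 (adjusted p = 0.00158). Trem2, a lipid-sensing receptor of macrophages, rose by 1.59 ± 0.25 (adjusted p = 0.00121) and Spp1, osteopontin, by 2.38 ± 0.30 (adjusted p = 0.000345). The complement list had 8 of 16 higher and 0 lower, led by C1qa (0.74), C1qb (0.83) and C1qc (0.64), which are made mostly by macrophages, and C4b (1.05). Of 28 interferon-response genes 10 rose and 0 fell, among them Ifit3 by 0.52 ± 0.12 (adjusted p = 0.0117) and Ifi27l2a by 0.69 ± 0.14 (adjusted p = 0.00443), both antiviral response genes. The interferon list median was 0.15 on the control and 0.41 on the BCAA-free diet. Over the sham mean of the control diet, TAC library medians were 0.10, 0.06 and 0.27, within the -0.41 to 0.31 of sham. On the BCAA-free diet they were 0.47, 0.23 and 0.39, above the -0.06 to 0.03 of sham. Of 19 chemokine genes 2 rose and 1 fell, near the 9.15% and 6.79% of all genes. Ccl8, which draws monocytes, read 7.30, 11.4 and 11.6 in control sham, 156, 43.7 and 40.0 in control TAC, 8.59, 13.5 and 6.36 in BCAA-free sham and 68.6, 31.9 and 83.5 in BCAA-free TAC libraries and rose by 2.27 ± 0.31 (adjusted p = 0.000603). Cxcl10, an interferon-induced chemokine, rose by 1.16 ± 0.24 (adjusted p = 0.00633), and Cxcl12, which retains stem and immune cells, fell by 0.30 ± 0.05 (adjusted p = 0.00294). The chemokine rises numbered 4 without control TAC 3 and 7 without control sham 3, and 6 without control TAC 2 and 3. Of 9 MHC class II genes 0 were called by limma and 0 by edgeR, with 2 at an unadjusted p under 0.05 by limma. Without control TAC 2 and 3, 1 rose, which was H2-DMb1, at 0.73 (adjusted p = 0.0136) by limma and 0.78 (adjusted p = 0.0119) by edgeR. The part of these macrophage levels in the matrix and complement rises was not tested.

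Other cell types changed less evenly. Fibroblast markers summed to 2339.6 to 2485 CPM in control sham, 2099 to 2469 in control TAC, 2140.3 to 2251 in BCAA-free sham and 2366 to 2864 in BCAA-free TAC libraries, so the groups overlapped on the control diet only. Of 15 such markers 6 rose and 1 fell, the falls numbering 0 without BCAA-free TAC 1, BCAA-free sham 3, control TAC 1, control TAC 2, control TAC 3, control sham 1, control sham 2 or control sham 3, and 0 without control TAC 2 and 3. Pi16, a marker of adventitial fibroblasts, rose by 0.80 ± 0.16 (adjusted p = 0.00444) and Lum, lumican, by 0.65 ± 0.13 (adjusted p = 0.00464). Of 15 endothelial markers 1 rose and 4 fell, the falls numbering 2 without BCAA-free TAC 1, BCAA-free TAC 2, BCAA-free sham 2, control TAC 1, control TAC 2 or control sham 2. Kdr, the main receptor for VEGF, read 6862, 9482 and 8903 in control sham, 5832, 6310.1 and 6329.9 in control TAC, 8214, 8809 and 7198 in BCAA-free sham and 6442, 6062 and 5703 in BCAA-free TAC libraries, with TAC below sham, and fell by 0.42 ± 0.07 (adjusted p = 0.00216). Tek, the angiopoietin receptor, fell by 0.31 ± 0.07 (adjusted p = 0.00745), and Angpt1, one of its ligands, fell by 0.47 ± 0.09 (adjusted p = 0.00484). Of the markers of pericytes and smooth muscle 4 of 14 rose and 4 fell. The rises include Des, named above as the filament of muscle, and the falls include Abcc9, described below with the ion channels. Acta2 is on both this list and that of the fibroblast markers. Cnn1, calponin of contractile smooth muscle, rose by 1.43 ± 0.22 (adjusted p = 0.00117), while Rgs5, a pericyte gene, fell by 0.25 ± 0.05 (adjusted p = 0.00495). Of 4 neutrophil markers 0 rose and 1, the same Mmp9 as among the proteases, fell, a call lost in 9 of the 12 fits without 1 library and without control TAC 2 and 3.

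Genes of cell division rose, with a larger median on the control diet, a difference that was tested gene by gene only. Of 27 mitosis and kinetochore genes, 23 rose and 2 fell, with a median of 1.33. On the control diet the median was 2.09 and on the BCAA-free diet 0.61. Top2a, topoisomerase II alpha, which untangles chromosomes before they part, read 94.9, 129 and 48.4 in control sham, 600.3, 536 and 533 in control TAC, 25.8, 29.8 and 28.6 in BCAA-free sham and 120.3, 40.1 and 48.8 in BCAA-free TAC libraries. TAC lay above sham on each diet, control TAC libraries were at least 533, and BCAA-free TAC 2 and 3 lay only a little above sham. Its mean change was 1.85 ± 0.32 (adjusted p = 0.00214), and its difference of effects between diets did not pass the threshold (adjusted p = 0.278). Ccna2, cyclin A2, read 34.1, 62.4 and 40.0 in control sham, 296, 247 and 221 in control TAC, 15.04, 12.5 and 13.8 in BCAA-free sham and 59.1, 24.7 and 47.1 in BCAA-free TAC libraries, also without overlap, and rose by 1.88 ± 0.24 (adjusted p = 0.000395). Tpx2, a spindle assembly factor, rose by 1.99 ± 0.34 (adjusted p = 0.00199) and Ube2c, the ubiquitin-conjugating enzyme of the anaphase-promoting complex, by 1.66 ± 0.28 (adjusted p = 0.00181). Of 23 rises, 7 had TAC and sham apart on both diets. Without control TAC 2 and 3, 14 mitosis genes rose and 2 fell. Those that fell were Cenpf and Cenpa, kinetochore and centromere genes, named after their values were seen. Cenpf read 612, 726 and 616 in control sham, 435, 539 and 559 in control TAC, 909, 742 and 892 in BCAA-free sham and 346, 358 and 716 in BCAA-free TAC libraries, a fall of 0.63 ± 0.16 (adjusted p = 0.0171) with no overlap. Cenpa fell by 0.21 ± 0.05 (adjusted p = 0.0144).

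Of 29 genes of DNA replication and nucleotide supply, 8 rose and 0 fell, 5 without control TAC 1 and 4 without control TAC 2 and 3. The median was 0.69 on the control and 0.02 on the BCAA-free diet. Uhrf1, which couples DNA methylation to replication, read 82.7, 84.0 and 40.0 in control sham, 369, 321 and 274 in control TAC, 29.0, 14.4 and 23.3 in BCAA-free sham and 58.0, 39.1 and 43.8 in BCAA-free TAC libraries and rose by 1.60 ± 0.25 (adjusted p = 0.00133), above sham on both diets. Chaf1b, of the histone chaperone CAF-1, changed by 1.04 ± 0.21 (adjusted p = 0.00542).

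The promoter windows of Top2a (chr11:99024140-99024439, minus strand) and Ube2c (chr2:164769679-164769978, plus strand) are shown because the mitosis genes moved together. Capitals mark CCAAT (the NF-Y letters) and TTTGAA (the cell cycle homology region, bound by the MuvB complex) on either strand. The 2 motifs did not overlap each other, and in Ube2c 2 CCAAT matches on opposite strands overlap.
Top2a: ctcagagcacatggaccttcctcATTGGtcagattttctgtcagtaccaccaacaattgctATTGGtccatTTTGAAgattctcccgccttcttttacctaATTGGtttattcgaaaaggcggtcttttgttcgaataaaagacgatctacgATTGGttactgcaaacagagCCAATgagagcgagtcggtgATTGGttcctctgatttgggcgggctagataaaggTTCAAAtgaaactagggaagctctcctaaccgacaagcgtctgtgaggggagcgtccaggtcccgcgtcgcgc
Ube2c: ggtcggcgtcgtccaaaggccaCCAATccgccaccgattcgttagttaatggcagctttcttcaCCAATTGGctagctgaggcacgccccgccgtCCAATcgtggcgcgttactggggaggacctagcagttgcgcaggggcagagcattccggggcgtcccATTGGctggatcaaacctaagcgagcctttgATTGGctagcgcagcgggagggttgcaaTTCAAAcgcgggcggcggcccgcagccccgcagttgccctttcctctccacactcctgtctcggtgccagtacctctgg
CCAAT was in 16 of the 19 windows listed for mitosis genes that rose (84.2%) and in 37.4% of all windows. TTTGAA was in 15 of the 19 (78.9%) and in 17.9% of all windows. Both windows listed for the mitosis genes that fell held both motifs.

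Several genes of ion conduction fell. Of 25 ion channels and connexins 0 rose and 11 fell, with a median of -0.21. The falls numbered 6 without BCAA-free sham 3 and 7 without BCAA-free TAC 1, BCAA-free sham 1, BCAA-free sham 2, control TAC 1 or control sham 3. Scn4b, an accessory subunit of the cardiac sodium channel, read 1367, 1848 and 1768 in control sham, 775, 1329 and 1179 in control TAC, 1569, 1819 and 1392 in BCAA-free sham and 833, 944 and 1093 in BCAA-free TAC libraries, with TAC below sham on each diet, and fell by 0.68 ± 0.12 (adjusted p = 0.00266). Scn4a, a sodium channel alpha subunit, fell by 0.53 ± 0.08 (adjusted p = 0.000731), Abcc9, the sulfonylurea receptor of the ATP-sensitive potassium channel, by 0.50 ± 0.08 (adjusted p = 0.00092) and Kcnj3, of the acetylcholine-gated channel, by 0.27 ± 0.05 (adjusted p = 0.00346). Abcc9 is also on the list of pericyte and smooth muscle markers, where it is among the falls. Of 22 adrenergic and angiotensin genes 1 rose and 5 fell. The falls numbered 3 without BCAA-free TAC 1, BCAA-free sham 2 or BCAA-free sham 3. Ace, which makes angiotensin II, read 2508, 2452 and 2320.4 in control sham, 3931, 3466 and 3618 in control TAC, 1798, 1836 and 1836 in BCAA-free sham and 4633, 2917 and 2784 in BCAA-free TAC libraries and rose by 0.74 ± 0.10 (adjusted p = 0.000603). TAC lay above sham on both diets.

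Fatty acid uptake and oxidation was the fuel pathway with the most falls. Of 34 genes 0 rose and 19 fell, with a median of -0.25, -0.33 on the control and -0.21 on the BCAA-free diet. The count was 12 without BCAA-free TAC 1, BCAA-free sham 1 or control sham 1. Cpt1b, which admits long-chain fatty acids to mitochondria, read 5756, 5222 and 5770.5 in control sham, 3657, 4128 and 4301 in control TAC, 6192, 6069 and 6405 in BCAA-free sham and 4967, 5651 and 5450.3 in BCAA-free TAC libraries. TAC was below sham on each diet, and the fall was 0.34 ± 0.06 (adjusted p = 0.00224). Ech1, an isomerase of unsaturated fatty acid oxidation, fell by 0.53 ± 0.09 (adjusted p = 0.00174). Mlycd, which destroys the Cpt1 inhibitor malonyl-CoA, fell by 0.39 ± 0.06 (adjusted p = 0.00178), and Etfdh, which passes electrons from oxidation to the respiratory chain, by 0.28 ± 0.06 (adjusted p = 0.00441). On the scale used, Cpt1b after TAC was 0.787 times its sham level.

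Other mitochondrial pathways leaned lower, more so on the control diet, with calls that depended on single libraries. Mean changes were below 0 for 42 of 46 respiratory chain, 17 of 18 TCA cycle, 17 of 22 branched-chain amino acid and 13 of 15 propionate genes, against 51.2% of all genes. In that order the medians were -0.19, -0.18, -0.19 and -0.26 on the control diet. On the BCAA-free diet they were 0.04, -0.05, -0.09 and -0.14, so the respiratory chain list did not lean lower there. Of 46 nuclear-encoded respiratory chain genes 0 rose and 3 fell, a share near the 6.79% of all genes that fell. The falls numbered 1 without BCAA-free TAC 1, BCAA-free sham 1, control TAC 1, control sham 1 or control sham 3. They numbered 5 without BCAA-free TAC 2, 6 without BCAA-free sham 2 and 1 without control TAC 2 and 3. Of 18 TCA cycle genes 0 rose and 3 fell, the falls numbering 1 without BCAA-free TAC 1, BCAA-free sham 1, BCAA-free sham 3, control TAC 1, control TAC 2, control TAC 3, control sham 1, control sham 2 or control sham 3 and 6 without BCAA-free TAC 2, 1 without control TAC 2 and 3, and 8 after quantile normalization. Suclg2, a subunit of succinyl-CoA ligase, fell by 0.28 ± 0.06 (adjusted p = 0.00528). Of 22 genes of branched-chain amino acid breakdown, 1 rose and 5 fell, the falls numbering 2 without BCAA-free TAC 1 or BCAA-free sham 3, 3 without BCAA-free sham 2, control TAC 1, control sham 2 or control sham 3 and 9 without BCAA-free TAC 3. Bckdha, of the dehydrogenase that commits these amino acids to oxidation, read 4607, 4540.2 and 5197 in control sham, 2801, 3549.9 and 3282 in control TAC, 5452, 5279 and 5995 in BCAA-free sham and 4018, 5880.0 and 4292 in BCAA-free TAC libraries. TAC lay below sham on the control diet and overlapped it on the BCAA-free diet, and the fall was 0.42 ± 0.09 (adjusted p = 0.0089). Bcat1, the cytosolic aminotransferase, read 64.5, 62.4 and 47.3 in control sham, 124, 71.9 and 73.7 in control TAC, 24.7, 21.1 and 33.9 in BCAA-free sham and 53.8, 63.7 and 49.6 in BCAA-free TAC libraries and rose by 0.77 ± 0.18 (adjusted p = 0.00937) without overlap. Of 15 propionate genes 0 rose and 4 fell, the falls numbering 2 without BCAA-free TAC 1, BCAA-free sham 1, BCAA-free sham 3, control TAC 1, control sham 1 or control sham 3 and 7 without BCAA-free TAC 3. Mut, methylmalonyl-CoA mutase, the last step from propionate to the TCA cycle, read 3292, 3351 and 3506 in control sham, 2491, 2826 and 2906 in control TAC, 3826, 3980.3 and 4145 in BCAA-free sham and 3370.3, 3205 and 3587 in BCAA-free TAC libraries. TAC was below sham on both diets and the fall was 0.27 ± 0.05 (adjusted p = 0.00274). Pcca, of propionyl-CoA carboxylase, fell by 0.23 ± 0.05 (adjusted p = 0.00889). Of 32 genes of glucose use 6 rose and 1 fell, the falls numbering 0 without BCAA-free sham 1, BCAA-free sham 3, control TAC 1, control TAC 2, control TAC 3, control sham 1, control sham 2 or control sham 3 and 3 without BCAA-free TAC 2, and 0 without control TAC 2 and 3. The median of the glucose list was -0.01 on the control and 0.11 on the BCAA-free diet. Pfkp, a phosphofructokinase, rose by 0.54 ± 0.11 (adjusted p = 0.00506) and Slc16a3, a lactate exporter, by 0.84 ± 0.17 (adjusted p = 0.00495).

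Among genes with a mean of 50 or more and no overlap between TAC and sham on either diet, Arntl fell most, at chr7:113207465-113314126 of GRCm38. It encodes BMAL1, the partner of CLOCK at the centre of the circadian clock, and read 116, 141 and 411 in control sham, 51.5, 44.7 and 63.9 in control TAC, 541, 499.8 and 455 in BCAA-free sham and 281, 212 and 147 in BCAA-free TAC libraries. Control sham 3 stood above the other control sham libraries, every TAC library lay below the sham libraries of its diet, and the fall was 1.51 ± 0.25 (adjusted p = 0.00181). Of 19 clock genes 3 rose and 3 fell. Nr1d1, which encodes REV-ERB alpha, read 3865, 4934 and 4397 in control sham, 2708, 2549 and 3627 in control TAC, 5802, 6792 and 6054 in BCAA-free sham and 4327, 4368 and 4286 in BCAA-free TAC libraries and fell by 0.55 ± 0.08 (adjusted p = 0.000763), and Clock fell by 0.43 ± 0.09 (adjusted p = 0.00572). Per2 read 1278, 997 and 576 in control sham, 1178, 1738 and 1292 in control TAC, 419.9, 455 and 491 in BCAA-free sham and 588, 1033 and 909 in BCAA-free TAC libraries, with overlap on the control diet, and rose by 0.73 ± 0.17 (adjusted p = 0.0116). The other 2 that rose, named after their values were seen, were Per3 (0.44) and Ciart (0.86). The clock rises numbered 1 without BCAA-free TAC 2, BCAA-free TAC 3, BCAA-free sham 1, BCAA-free sham 2 or BCAA-free sham 3 and 5 without control sham 1. The time of day at which hearts were taken is not given in the sources used here, so its part in these values was not tested.

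The Arntl window at chr7:113207261-113207560 (plus strand, the more downstream of 2 listed) is shown because this gene had the largest of those falls. Capitals mark AGGTCA, the core letters bound by ROR and REV-ERB receptors, on either strand.
Arntl: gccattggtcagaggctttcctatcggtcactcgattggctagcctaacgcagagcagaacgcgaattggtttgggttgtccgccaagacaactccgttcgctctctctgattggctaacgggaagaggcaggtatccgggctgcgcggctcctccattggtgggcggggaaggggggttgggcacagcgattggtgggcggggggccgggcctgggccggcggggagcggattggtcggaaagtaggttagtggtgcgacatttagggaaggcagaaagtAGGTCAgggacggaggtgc
AGGTCA was in 2 of 6 windows of the clock genes that fell (33.3%) and in 16.3% of all windows.

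The other large falls, predicted and clone-named genes aside, were in genes of several kinds. Chrna2, a nicotinic acetylcholine receptor subunit, read 101, 103 and 155 in control sham, 57.8, 49.5 and 40.0 in control TAC, 111, 51.9 and 64.7 in BCAA-free sham and 31.6, 42.2 and 49.6 in BCAA-free TAC libraries and fell by 0.99 ± 0.20 (adjusted p = 0.00444). Slc41a3, a magnesium transporter, read 1924, 2288 and 1970.1 in control sham, 1143, 774 and 1246 in control TAC, 3829, 3485 and 3290.4 in BCAA-free sham and 2199, 1782 and 1798 in BCAA-free TAC libraries, with every TAC library below sham, and fell by 0.93 ± 0.10 (adjusted p = 0.000187). Ano10, of the anoctamin family, fell by 0.83 ± 0.11 (adjusted p = 0.000475), Kcna1, a potassium channel, by 0.82 ± 0.15 (adjusted p = 0.00293) and Colq, which anchors acetylcholinesterase at synapses, by 0.81 ± 0.12 (adjusted p = 0.000932). Ctla4, an inhibitory receptor of T cells, fell by 0.83 ± 0.17 (adjusted p = 0.00561), while 0 of 10 markers of T, NK and B cells were called by limma, which gave 5 at an unadjusted p under 0.05, and 1 was lower by edgeR. The 15 largest falls among genes that are not predicted or clone-named were completed by Gprasp2, Tmem179, Fam222a, Stum, Rims4 and Tbc1d10c, with changes from -0.89 to -0.81, and by the mitochondrial tRNAs mt-Ti and mt-Tm. Of 24 growth factor genes 4 rose and 6 fell, 3 without control TAC 2 and 3. Fgf16, a heart-enriched fibroblast growth factor, read 668, 645 and 661 in control sham, 455, 489 and 411 in control TAC, 889, 901 and 948 in BCAA-free sham and 569.6, 626 and 529 in BCAA-free TAC libraries, apart on both diets, and fell by 0.60 ± 0.06 (adjusted p = 0.000172). Hbegf, a ligand of the EGF receptor, rose by 0.72 ± 0.12 (adjusted p = 0.00212).

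Several transfer RNAs of mitochondria fell. The RNA was selected for poly(A), so these short transcripts are measured only as far as they carry a tail or stay joined to a longer transcript, and whether reads were counted by strand is not given in the sources used here, so genes that overlap may share reads. Apart from mt-Ti and mt-Tm, which were among the 15 largest falls, they were added to the genes described after their values were seen. Of 20 tested, 11 fell and 1 rose, against 1 lower and 0 higher of 13 mitochondrial protein-coding genes, and the median was -0.37 against -0.19. Counts of calls do not measure this contrast well. The protein-coding mt-Co1 (-0.20 ± 0.17, adjusted p = 0.458) and mt-Nd5 (-0.27 ± 0.09, adjusted p = 0.0607) were not called, with every TAC library below sham on both diets. Some called tRNAs fell mainly on the control diet, with -1.06 against -0.11 for mt-Tn and -0.71 against -0.03 for mt-Ts2. Others, such as mt-Ty (-0.62 and -0.56), fell alike. The tRNA falls numbered 7 without control TAC 1, control TAC 2 or BCAA-free sham 3, and 8 with 0 rises without control TAC 2 and 3. The tRNAs for isoleucine and methionine lie in a row between Nd1 and Nd2, with the glutamine tRNA on the opposite strand between them. mt-Ti (chrM:3706-3774) read 1973, 1459.7 and 2928 in control sham, 490.2, 922 and 813 in control TAC, 2564, 1737 and 2472 in BCAA-free sham and 1007, 1566 and 1369.6 in BCAA-free TAC libraries. All TAC libraries lay below sham and the fall was 1.14 ± 0.20 (adjusted p = 0.00243). mt-Tm (chrM:3845-3913) fell by 0.94 ± 0.18 (adjusted p = 0.00334) and mt-Tq (chrM:3772-3842) by 0.64 ± 0.16 (adjusted p = 0.016), the last with overlap on both diets. Their gene sequences, from the GENCODE M21 transcripts of GRCm38, are shown because these adjacent genes fell together.
mt-Ti: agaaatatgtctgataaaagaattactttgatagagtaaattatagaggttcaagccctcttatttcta
mt-Tq: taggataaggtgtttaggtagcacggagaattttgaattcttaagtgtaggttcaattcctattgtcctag
mt-Tm: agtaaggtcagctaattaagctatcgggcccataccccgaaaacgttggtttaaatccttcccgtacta
mt-Ty, for tyrosine, read 2394, 3095 and 2536 in control sham, 1534, 1890.0 and 1770.5 in control TAC, 2752, 2811 and 3029.6 in BCAA-free sham and 1796, 2035 and 1989 in BCAA-free TAC libraries and fell by 0.59 ± 0.07 (adjusted p = 0.000217), apart on both diets. The summed protein-coding transcripts of mitochondria made up 191500.0 to 202099 CPM in control sham, 163789 to 176137 in control TAC, 180821 to 196077 in BCAA-free sham and 162168 to 176432 in BCAA-free TAC libraries, so TAC lay below sham on both diets. The summed tRNAs made up 1881 to 2057, 1239 to 1451, 1771 to 2219 and 1646 to 1782 CPM in the same order, with overlap on the BCAA-free diet.

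**Figure D5:**
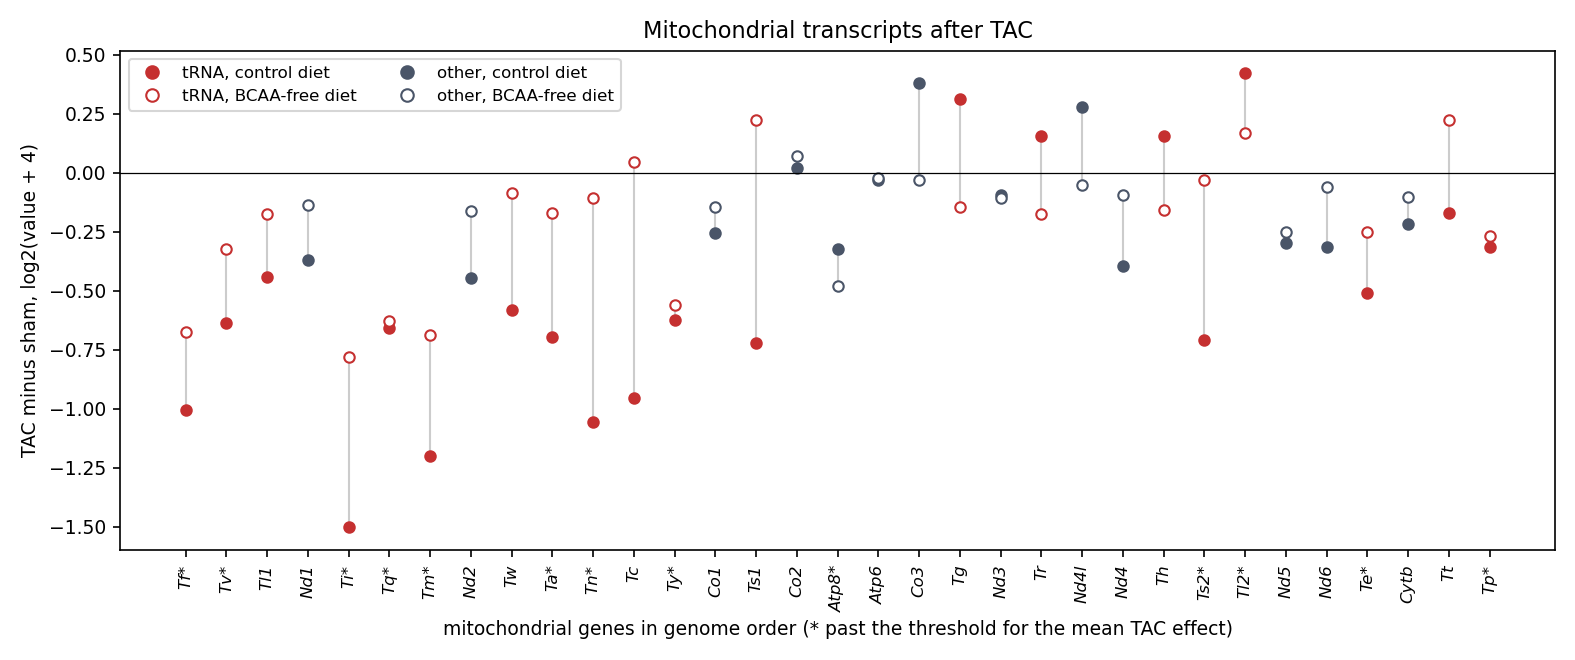
TAC minus sham in log2(value + 4) of the tested mitochondrial genes in genome order, with filled points for the control and open points for the BCAA-free diet and tRNAs in red. The tRNAs Ti, Tq and Tm, side by side, are below -0.6 on both diets, and mt-Ti is the lowest point on the control diet.

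Genes of the integrated stress response and of serine and folate metabolism rose in 13 of 27 cases and fell in 2, with a median of 0.34. The rises numbered 8 without BCAA-free TAC 1 or control TAC 1 and 9 without control TAC 2 and 3. Eif4ebp1, a brake on translation, read 2669.9, 2524 and 2436 in control sham, 3904, 3310.0 and 3214 in control TAC, 2667, 2556 and 2754 in BCAA-free sham and 3865, 3996 and 4083 in BCAA-free TAC libraries. TAC was above sham on both diets and the rise was 0.51 ± 0.05 (adjusted p = 0.000177). Psat1, of serine synthesis, rose by 0.75 ± 0.15 (adjusted p = 0.00421). Slc7a1, an arginine transporter, fell by 0.45 ± 0.08 (adjusted p = 0.00241). Of 40 ribosomal protein genes 9 rose and 0 fell, with a median of 0.07 and 4 without control sham 2 and 5 without BCAA-free sham 2 or control TAC 1. The median of the ribosomal list was 0.01 on the control and 0.14 on the BCAA-free diet. Rpl3 rose most of those named, by 0.40 ± 0.08 (adjusted p = 0.00347). Of 20 endoplasmic reticulum chaperone and degradation genes 1 rose and 4 fell, the rises numbering 0 without BCAA-free TAC 1, BCAA-free sham 1, BCAA-free sham 3, control TAC 1, control TAC 2, control TAC 3, control sham 1 or control sham 2, and 0 without control TAC 2 and 3, and the falls 2 without BCAA-free sham 2, BCAA-free sham 3, control TAC 1 or control sham 3. Hspa5, the chaperone BiP, read 14138, 14728 and 19053 in control sham, 12254, 12925 and 12712 in control TAC, 18817, 23206 and 20499.6 in BCAA-free sham and 12837, 12646 and 16122 in BCAA-free TAC libraries, with TAC below sham, and fell by 0.46 ± 0.09 (adjusted p = 0.00368). Of 21 oxidant-defence genes 8 rose and 2 fell, the rises numbering 5 without BCAA-free sham 2, BCAA-free sham 3 or control TAC 1 and the falls 1 without BCAA-free TAC 1, BCAA-free sham 3, control TAC 1, control sham 1 or control sham 2, and 0 without control TAC 2 and 3. The median of the oxidant-defence list was -0.09 on the control and 0.08 on the BCAA-free diet. Hmox1, heme oxygenase, rose by 0.93 ± 0.15 (adjusted p = 0.00122) and Nox4, a source of hydrogen peroxide, by 0.88 ± 0.17 (adjusted p = 0.00459). Of 32 tubulin, actin and integrin genes 16 rose and 0 fell, with a median of 0.31. Tubb2b, a beta tubulin, rose by 1.24 ± 0.18 (adjusted p = 0.000731). Of 30 genes of TGF-beta signalling 5 rose and 2 fell, the falls near the 6.79% of all genes. Gdf6, a BMP-family ligand, rose by 1.60 ± 0.31 (adjusted p = 0.0039) and Inhba, of activin, by 1.01 ± 0.22 (adjusted p = 0.00781), while Smad3, which carries the signal, fell by 0.40 ± 0.07 (adjusted p = 0.00336). Of 24 immediate-early genes 3 rose and 0 fell, the rises numbering 5 without BCAA-free TAC 3, 6 without control sham 2 and 7 without control TAC 3, and 7 without control TAC 2 and 3. Egr2 rose by 1.72 ± 0.33 (adjusted p = 0.00375). Of 28 metabolic transcription factors 1 rose and 8 fell, the falls numbering 4 without BCAA-free TAC 1 or BCAA-free sham 1 and 5 without control TAC 1 or control sham 1 and the rises 0 without BCAA-free TAC 1, BCAA-free sham 2, BCAA-free sham 3, control TAC 1, control TAC 2, control TAC 3, control sham 1, control sham 2 or control sham 3, and 0 without control TAC 2 and 3. Thra, a thyroid hormone receptor, fell by 0.25 ± 0.04 (adjusted p = 0.00266).

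Genes with a predicted or clone-style name or of a non-coding class were called as well. The choice was by name or class, so some of them may encode a protein. A530016L24Rik read 1081, 1113 and 1302 in control sham, 505, 426 and 545 in control TAC, 1922, 1937 and 1842 in BCAA-free sham and 696, 1228 and 1143 in BCAA-free TAC libraries, with TAC below sham on each diet, and fell by 1.09 ± 0.12 (adjusted p = 0.000187). 1500009L16Rik rose by 1.29 ± 0.17 (adjusted p = 0.000498), 2210407C18Rik by 1.07 ± 0.15 (adjusted p = 0.000658) and Gm13292 by 0.92 ± 0.12 (adjusted p = 0.000396), and Gm10435 and Gm29237 fell by 0.55 ± 0.08 (adjusted p = 0.000621) and 0.48 ± 0.07 (adjusted p = 0.000658). Values of predicted genes and of genes that overlap others are uncertain, since reads may be shared with a copy or a neighbour.

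In the authors' deposited tables, 1548 genes on the control diet and 1145 on the BCAA-free diet had an adjusted p under 0.05. The authors' lists shared 448 genes, 28.9% of the control list and 39.1% of the BCAA-free list, and 438 of these had the same direction in the authors' deposited tables (315 higher, 123 lower). Of the 448, 437 were called for the mean effect here. Both rest on the same libraries, so this is not an independent check.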

How the data were processed

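Hearts in 4 groups of 3 libraries were measured by RNA-seq of poly(A)-selected RNA, per the labels. The submitters' processing notes name STAR 2.5.2b, Trimmomatic 0.36, DESeq2 and Subread 1.5.2, with GRCm38 (mm10) as the build. How strand was used in counting is not stated there. The authors deposited 1 table per comparison. Its library columns hold a signal, reads divided by a size factor, as the deposited values show. Further columns are the authors' log2 fold change, p-value and its adjusted form, per the file headers. Scaling a column so that 1 read counts as 1 gave whole reads for 100% of values at a tolerance of 0.001.

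Changes were tested in limma 3.58.1 (R 4.3.3, prior variance following the mean level) on log2(value + 4), with diet as a block, for genes in both tables with a mean of 10 or more, adjusted by Benjamini and Hochberg. Each diet was also tested alone, and the difference of effects as an interaction. The scripts were tested on simulated data. Counts of reads were tested with edgeR 4.0.16 and DESeq2 1.42.0 as alternatives. The other alternatives were the pseudocount, the filter, quantile normalization, 1 mean per group, a replicate block and leaving out libraries, after which the filter was applied again. Markers were summed as CPM. Of 16363 identifiers, 16330 were found in GENCODE M21. Promoters are from RefSeq.

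Named genes were the 15 largest rises and 15 largest falls, predicted and clone-named genes left out. These had a mean of 50 or more and no overlap between TAC and sham on either diet, so their lack of overlap is by rule. From each described list up to 4 called members of smallest p were added (the 1 with the smallest p where none was called). So were 8 cardiac genes whatever their values, 6 with the smallest p for the difference of effects and 6 predicted, clone-named or non-coding genes. Some genes that this rule names are not reported here. The genes, lists and tests were chosen with earlier results of these data known.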

Additional observations from a re-analysis of the deposited data

Results flagged for a closer look

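The TAC response of 2 called genes differed between the diets by the interaction test of limma. For Lmnb1 the difference of effects, BCAA-free minus control, was -1.20 ± 0.14 (adjusted p = 0.00401), with TAC above sham in all 3 control TAC libraries. For Stmn1 it was -1.08 ± 0.17 (adjusted p = 0.0433). Without control TAC 2 and 3 the mean effects of both missed the threshold, at 0.52 (adjusted p = 0.0737) for Lmnb1 and 0.56 (adjusted p = 0.0651) for Stmn1, whose adjusted p over the alternatives ranged from 0.000128 to 0.0737 and from 0.000452 to 0.0651.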

How the results depend on the processing

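The mean effect was called for 2474 genes and for 1647 to 2671 when 1 library was left out. The other alternatives gave 2127 to 2990 genes. Quantile normalization gave 2459 with another split, 1250 higher and 1209 lower. On the control diet alone (848) DESeq2 called 1539, fits without 1 library called 300 to 659, and with the filter held at all libraries 91 genes were called without control TAC 3 and 180 without control TAC 2 and 3, alternatives chosen after seeing the data. On the BCAA-free diet alone (688) DESeq2 called 1145 and fits without 1 library 106 to 1199. For the difference of effects (7 genes) DESeq2 called 108, the filter of 50, the pseudocount of 1 and quantile normalization 4 each, fits without 1 library 2 to 15, and fits without control TAC 2 and 3 called 1, also with the filter held at all libraries and with edgeR. Without control TAC 3 and with that filter 2 were called. Myh6, not called, lay between -0.049 and 0.018 when 1 library was left out, and changed sign without control TAC 1. The cause of these shifts was not tested. Of 189 named genes past the threshold, 154 kept their call in every alternative and 35 lost it in at least 1.

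With the replicate number as a block, 2384 genes were called for the mean effect, 805 on the control diet, 525 on the BCAA-free diet and 3 for the difference. Deviations of same-numbered TAC and sham libraries correlated at -0.07, 0.06 and 0.03 on the control diet. On the BCAA-free diet they correlated at -0.15, -0.09 and 0.04. These values compare TAC with sham libraries within a diet only. Whether same-numbered libraries of different diets share more than a number was not tested. With 3 libraries per group, small changes of genes with few reads could not be told from the spread.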

Other observations

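Among gene groups not described above, 3 of 20 aminoacyl-tRNA synthetase genes rose and 0 fell (1 without BCAA-free TAC 1, BCAA-free sham 1, BCAA-free sham 2, BCAA-free sham 3, control TAC 1, control sham 1 or control sham 3, and 1 without control TAC 2 and 3). Of 17 lipid droplet genes 1 rose and 2 fell, the falls numbering 0 without BCAA-free sham 1, control TAC 1, control TAC 2 or control sham 1 and 1 without BCAA-free TAC 1, control sham 2 or control sham 3 and the rises 0 without BCAA-free TAC 1, BCAA-free TAC 2, BCAA-free sham 3, control TAC 3, control sham 1 or control sham 2, and 0 without control TAC 2 and 3. Of 11 creatine genes 2 rose, 0 without control TAC 1 and 1 without BCAA-free TAC 1, BCAA-free sham 1, BCAA-free sham 2, BCAA-free sham 3, control TAC 2, control TAC 3, control sham 1 or control sham 2, and 1 without control TAC 2 and 3. The median of the creatine list was -0.04 on the control and 0.16 on the BCAA-free diet. Of 22 protein degradation genes 2 rose and 2 fell, near the 9.15% and 6.79% of all genes. The rises numbered 1 without BCAA-free sham 1. The falls numbered 1 without BCAA-free TAC 1, BCAA-free sham 1, BCAA-free sham 3, control TAC 1, control TAC 2, control TAC 3, control sham 1, control sham 2 or control sham 3, and 1 without control TAC 2 and 3. Sars, seryl-tRNA synthetase, rose by 0.18 ± 0.05 (adjusted p = 0.018) and Ctsb, the lysosomal protease cathepsin B, by 0.38 ± 0.08 (adjusted p = 0.00593). Asb15, a muscle ubiquitin ligase subunit, read 2015, 1826 and 2133 in control sham, 1331, 1486 and 1603 in control TAC, 2668, 2737 and 2716 in BCAA-free sham and 1747, 1911 and 2299 in BCAA-free TAC libraries and fell by 0.45 ± 0.07 (adjusted p = 0.00092), with TAC below sham on both diets. Of 10 atrial markers 1 rose, which was Nppa, and of 8 liver transcripts tested 1 rose, 0 without control sham 2, 2 without BCAA-free TAC 3 and 4 without control TAC 2, and 2 without control TAC 2 and 3. Mean changes were above 0 for 9 of the 10 atrial markers, with a median of 0.23. Over the sham mean, the atrial list median ran from -0.44 to 0.21 in control sham and from -0.47 to 0.36 in BCAA-free sham libraries. Markers of fat (6 tested), blood (6) and lung or thymus (1) gave 0 calls by limma, and 0 of these markers had an unadjusted p under 0.05. In edgeR 0 were called. Without control TAC 2 and 3, 1 fat marker rose.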
